A study of Mus musculus with 2 samples.

Results

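The 10 genes Tgfb1, Tgfb2, Tgfb3, Bmp4, Bmp7, Tgfbr1, Tgfbr2, Tgfbr3, Bmpr2 and Eng, ligands and receptors of the TGF-beta and BMP pathways, were followed across the cell types of the mouse glomerulus. They were taken by symbol from the feature list, where each matched 1 of 31058 entries. The counts come from single-cell RNA sequencing of all glomerular cells of 2 healthy mice, 1 titled female and 1 titled male, both C57Bl/6 with the genotype Pax2.rtTA;TetO.Cre;R26.Confetti. In this genotype the Pax2 promoter drives a doxycycline-dependent activator, which switches on Cre, and Cre recombines a multicolour reporter in cells that express Pax2. Both mice received doxycycline at 19 days of age and were killed at 30 days, so the induction is shared by both libraries and there was no uninduced group.

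Ligands of the TGF-beta and BMP families are secreted, bind pairs of type I and type II serine/threonine kinase receptors, often with the help of a co-receptor, and signal through phosphorylated Smad proteins. TGF-beta ligands are made in a latent form that has to be released from the matrix. In the kidney the family is known for the growth of mesangial matrix, for the upkeep of podocytes and endothelium and, through Bmp7 and Bmp4, for the growth of the nephron and the ureter.

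Each mouse gave 1 library, so no difference between the libraries has a replicate check and no test was made. The 2 libraries held 5233 and 4974 barcodes with 67648465 and 57841860 UMIs (molecular barcodes that count captured transcripts once), and 4909 and 4442 cells with medians of 10672 and 9616 UMIs were kept. Sex-linked transcripts were opposite to the titles, with Xist at 0.682 CPM (UMIs of a gene per 1000000 UMIs) in the library labelled female and 1593 CPM in the library labelled male, and 13174 against 1 UMIs of 4 Y-linked genes. The deposited files are named for the sex opposite to the titles. The titles are kept here as labels only. Pairs of values give the library labelled female first, and brackets hold 95% intervals for counting error. The libraries shared 10 barcodes.

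Clusters were named from marker genes, with the 10 genes and the other pathway genes kept out of the clustering, so their levels did not shape the clusters. Podocyte-like cells numbered 3353 and 2940, mesangial-like cells 209 and 169, glomerular endothelial-like cells 112 and 89, parietal epithelial-like cells 79 and 54, arterial endothelial-like cells 66 and 66, smooth muscle or renin-like cells 44 and 62, and thick ascending limb-like cells 36 and 51. These 7 classes gave the levels below, as the CPM of a gene in the summed UMIs of the class. Proximal tubule-like cells (10 and 22) and distal convoluted or connecting tubule-like cells (7 and 20) were too few for the comparison of classes. The leading genes of the thick ascending limb-like cluster, Slc12a1 and Umod among them, also held the collecting duct gene Aqp2. In all, 1882 of 9351 cells stayed unnamed, most of them with podocyte markers.

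Markers of other cell types were present in each class at different levels, and whether they came from other cells or from the class itself was not tested. The 10 podocyte markers stood at a median of 20.4 and 12.5% of their podocyte level in smooth muscle or renin-like cells, but at 3.40 and 2.68% in parietal epithelial-like, 3.50 and 2.91% in glomerular endothelial-like and 1.01 and 1.20% in mesangial-like cells. Of the 112 glomerular endothelial-like cells under the female label, 5 held at least 2 UMIs of the mesangial gene Pdgfrb, against 0 of 89 in the other library, and the 10 mesangial markers summed to 2063 and 71.9 CPM in that class. Bmp7, with 1 UMI in that class under the female label, rose from 0.727 to 0.947 CPM without these cells. Those 5 cells thus held a larger part of the UMIs of the class than of its cells. The 5 erythroid markers summed to 16134 and 10.4 CPM in thick ascending limb-like, 4683 and 6300.2 CPM in glomerular endothelial-like and 589 and 16.3 CPM in podocyte-like cells. The 10 arterial endothelial markers summed to 3651 and 3399.5 CPM in arterial endothelial-like cells and to 3201 and 3091.5 CPM in podocyte-like cells. Of these, Sox17 (746 and 597 CPM) and Fbln5 (822 and 665 CPM) were highest in the arterial class. Gja5 was at 34.6 and 105 CPM there and higher, at 207.5 and 335 CPM, in mesangial-like cells.

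All 10 genes reached at least 20 CPM in their highest class in both libraries, as did 9188 of all 31058 entries. For 9 of the 10 the highest class was the same in both libraries, and across all 9188 genes at this level 66.9% had this property. Glomerular endothelial-like cells were the highest class for 4 genes, Tgfb1, Tgfbr2, Bmpr2 and Eng, where 9.33% of all genes had their highest class in both libraries. Podocyte-like cells were highest for 2, Tgfbr3 and Bmp7 (12.8% of all genes). Parietal epithelial-like cells were highest for Bmp4 (10.8%), smooth muscle or renin-like cells for Tgfb3 (4.83%) and arterial endothelial-like cells for Tgfb2 (6.85%). Mesangial-like (10.5%) and thick ascending limb-like cells (11.8%) were highest in both libraries for 0 of the 10. Tgfbr1 had a different highest class in each library. Tgfb2, Tgfb3, Tgfbr2 and Bmp4 stood at least 2-fold above the next class in both libraries, 4 of 10 genes, against 15.7% of all genes. With each cell thinned to 3000 UMIs before the sums, the 4 genes became 1, and the share of all genes was not computed.

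**Figure D1:**
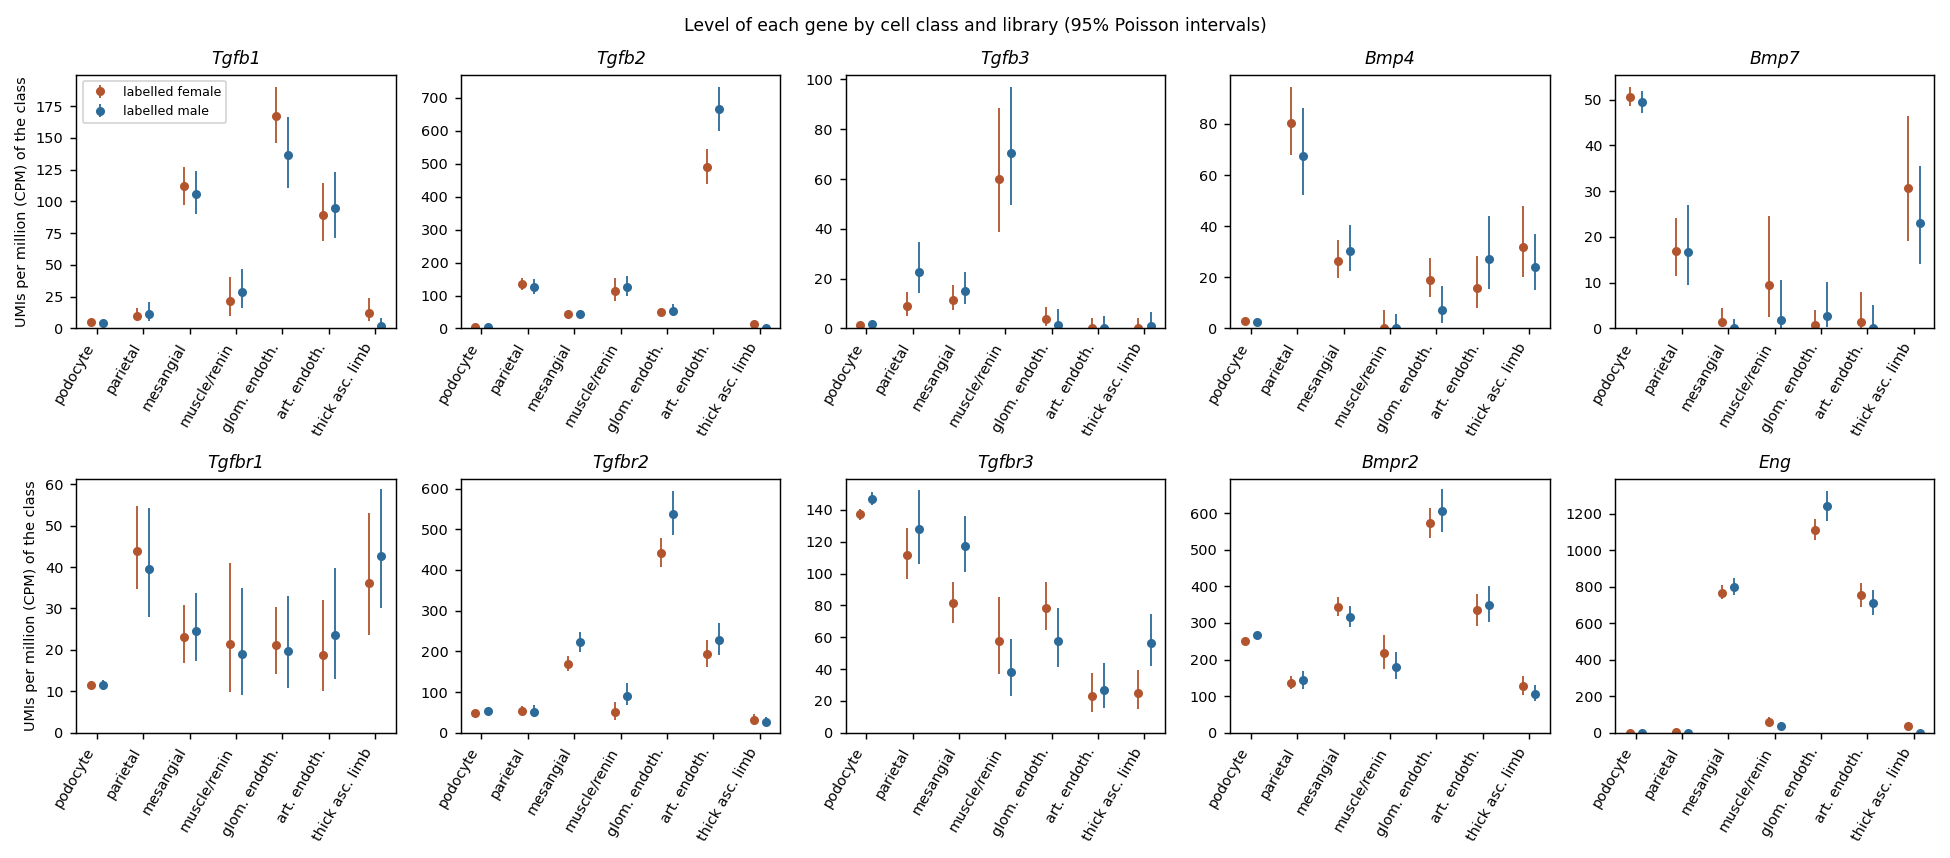
Level of each gene, as CPM of the class (linear axis from 0), in 7 cell classes of the libraries labelled female and male; points are class sums and bars are 95% Poisson intervals. Tgfb1, Tgfbr2, Bmpr2 and Eng are highest in glomerular endothelial-like cells, Tgfb2 in arterial endothelial-like cells at 490 and 665 CPM, Bmp4 in parietal epithelial-like cells and Bmp7 and Tgfbr3 in podocyte-like cells.

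RefSeq promoter entries (build GRCm38.p6) were at hand for 7 of the 10 genes, and the 250 bases before each start were searched on both strands for 5 motifs, chosen with the levels of the genes known. The motif AGGAAG, which reads CTTCCT on the opposite strand, holds the core bound by ETS factors, a family with many endothelial members. It was present in 5 of the 8 entries of the 7 genes, against 29.5% of all 32851 entries. These were Eng, Tgfbr2, Tgfb1 and Bmpr2, the genes highest in glomerular endothelial-like cells, and the second of the Tgfbr1 entries. The entries of Tgfb2, highest in arterial endothelial-like cells, of Bmp4 and the first of Tgfbr1 lacked it. Tgfb3, Tgfbr3 and Bmp7 had no entry, so the genes highest in podocyte-like and smooth muscle or renin-like cells were not searched. Whether the motif has a part in the levels was not tested. The GC box GGGCGG was present in 4 of the 8, for Tgfb1, Tgfbr1 (first entry), Bmp4 and Bmpr2, against 32.7% of all entries. The Smad element GGCGCC was present for Tgfbr1 (first entry) and Bmpr2 (9.59%), the E box CACGTG for Tgfb2 and Bmp4 (6.02%), and the palindromic Smad element GTCTAGAC in 0 of the 8 (0.167%). The windows of Eng (chr2:32646345-32646594, plus strand), Tgfbr2 (chr9:116175364-116175613, minus strand) and Tgfb1 (chr7:25686752-25687001, plus strand) are shown because these genes shared their highest class, each 5′ to 3′ on the strand of the gene with the AGGAAG motif of either strand in capitals.
Eng: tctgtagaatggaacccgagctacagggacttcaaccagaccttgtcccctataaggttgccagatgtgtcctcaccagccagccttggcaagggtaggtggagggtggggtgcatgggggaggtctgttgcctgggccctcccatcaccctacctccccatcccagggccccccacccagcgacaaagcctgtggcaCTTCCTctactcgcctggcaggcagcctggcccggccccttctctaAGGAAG
Tgfbr2: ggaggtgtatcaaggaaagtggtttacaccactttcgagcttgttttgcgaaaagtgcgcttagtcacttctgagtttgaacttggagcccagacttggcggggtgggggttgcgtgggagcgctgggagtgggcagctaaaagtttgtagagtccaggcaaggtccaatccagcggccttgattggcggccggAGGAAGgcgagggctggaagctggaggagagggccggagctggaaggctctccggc
Tgfb1: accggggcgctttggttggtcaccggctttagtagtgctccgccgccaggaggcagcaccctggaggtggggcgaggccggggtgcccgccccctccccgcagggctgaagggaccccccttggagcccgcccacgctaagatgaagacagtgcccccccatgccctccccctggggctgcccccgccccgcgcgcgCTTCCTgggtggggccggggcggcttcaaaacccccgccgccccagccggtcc
The motif began 52 and 6 bases before the start of Eng, 56 before that of Tgfbr2 and 53 before that of Tgfb1. The Bmpr2 window, with the motif 180 bases before the start, lies inside the gene as GENCODE M21 draws it and is not printed. The share of G and C was 62.4% in the Eng window, 58.4% in that of Tgfbr2 and 75.2% in that of Tgfb1, with a median of 52.4% over all entries. A match describes the letters of the window only.

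Among the ligands, Tgfb1 (chr7:25687002-25705077, plus strand, GRCm38), the most widely studied TGF-beta ligand, was highest in the endothelial-like and mesangial-like cells. It stood at 167 CPM (146 to 190) and 137 CPM (111 to 167) in glomerular endothelial-like cells, at 112 (97.6 to 127) and 106 (90.2 to 124) in mesangial-like cells and at 89.3 and 94.8 in arterial endothelial-like cells. The intervals of the first pair of neighbours overlapped in the library labelled male, and those of mesangial-like and arterial endothelial-like cells overlapped in both. All 3 classes lay above smooth muscle or renin-like cells (21.5 and 28.6 CPM) with intervals apart in both libraries. Epithelial classes were lower, with parietal epithelial-like cells at 10.1 and 11.4 CPM, thick ascending limb-like cells at 12.5 and 2.31 CPM and podocyte-like cells at 5.17 (4.51 to 5.89) and 4.32 (3.64 to 5.09) CPM. Thinned to 3000 UMIs a cell, 40.2 and 39.3% of glomerular endothelial-like cells but 1.52 and 1.29% of podocyte-like cells had a UMI of Tgfb1. Without thinning the shares were 65.2 and 60.7% against 6.17 and 4.35%, at class medians of 7932 and 6452 against 11183 and 10142.5 UMIs a cell. Outside the 7 classes, macrophage or monocyte-like cells reached 397 (278 to 549) and 248 (185 to 326) CPM, from only 11 and 25 cells.

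Tgfb2 (chr1:186622792-186705989, minus strand), a second TGF-beta ligand with roles in heart, vessel and kidney development, was highest in the arterial endothelial-like cells. Arterial endothelial-like cells held 490 CPM (439 to 545) and 665 CPM (601 to 734), 3.65- and 5.25-fold above the next class, with intervals apart in both libraries. Parietal epithelial-like cells (134 and 127 CPM) and smooth muscle or renin-like cells (115 and 126 CPM) came next and overlapped each other. Glomerular endothelial-like cells, although also endothelial, held 48.7 and 53.5 CPM, a level that overlapped that of mesangial-like cells at 43.1 and 45.1 CPM. Podocyte-like cells were low at 4.37 and 3.38 CPM, and thick ascending limb-like cells gave 9 and 1 UMIs. After thinning, a UMI was found in 69.7 and 80.3% of arterial endothelial-like cells and in 8.93 and 7.87% of glomerular endothelial-like cells (89.4 and 90.9% against 21.4 and 16.9% without thinning).

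Tgfb3 (chr12:86056745-86079041, minus strand), the third TGF-beta ligand, was highest in smooth muscle or renin-like cells, the class led by Ren1, the renin gene, and Myh11, a smooth muscle myosin. It stood there at 59.8 CPM (38.7 to 88.3) and 70.5 CPM (49.6 to 97.1), from 25 and 37 UMIs, 6.66- and 3.08-fold above parietal epithelial-like cells. Parietal epithelial-like cells (8.99 and 22.9 CPM) and mesangial-like cells (11.5 and 15.2 CPM) overlapped. In podocyte-like cells it was at 1.28 and 1.78 CPM. No UMI was counted in arterial endothelial-like cells, which allows up to 4.32 and 5.08 CPM. Tgfb3 overlaps Ttll5 on the opposite strand, and no source used here gives the strand of counting. Ttll5 was at 21.6 and 13.5 CPM in arterial endothelial-like cells, where Tgfb3 had 0 UMIs, and at 11.97 and 9.52 CPM in smooth muscle or renin-like cells.

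Bmp4 (chr14:46383520-46390669, minus strand), a BMP ligand that acts in the outgrowth and wrapping of the ureter and in glomerular assembly, was highest in the parietal epithelial-like cells. It reached 80.3 CPM (67.7 to 94.6) and 67.5 CPM (52.1 to 86.1) in parietal epithelial-like cells, 3.02- and 2.22-fold above mesangial-like cells, with intervals apart in both libraries. Mesangial-like cells (26.6 and 30.5 CPM), thick ascending limb-like cells (32.0 and 24.2 CPM) and arterial endothelial-like cells (15.8 and 27.1 CPM) overlapped one another. Podocyte-like cells held 2.84 and 2.42 CPM. No UMI was counted among 417775 and 525132 UMIs of smooth muscle or renin-like cells, which allows up to 7.18 and 5.71 CPM. In glomerular endothelial-like cells it was at 18.9 and 7.05 CPM, and without the 5 cells with Pdgfrb at 12.3 CPM in the library labelled female. The small proximal tubule-like class held 19.0 and 47.2 CPM. Of its antisense partners, Gm15222 reached at most 6.18 CPM in these classes and Gm15217 at most 2.08 CPM.

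Bmp7 (chr2:172868012-172940321, minus strand), a BMP ligand required for nephron formation and known to oppose TGF-beta signalling in the kidney, was an epithelial transcript with its highest level in podocyte-like cells. The levels there were 50.7 CPM (48.6 to 52.9) and 49.4 CPM (47.1 to 51.9), and 44.3 and 39.3% of cells had a UMI (13.2 and 13.1% after thinning). Thick ascending limb-like cells followed at 30.6 (19.2 to 46.4) and 23.1 (14.1 to 35.6) CPM and parietal epithelial-like cells at 16.8 and 16.6 CPM; the last 2 classes overlapped, and podocyte-like cells lay above them with intervals apart in both libraries. The 2 small tubule classes were in the same range, with 22.2 and 23.6 CPM in proximal tubule-like and 21.5 and 48.7 CPM in distal convoluted or connecting tubule-like cells. The other glomerular classes gave few UMIs, with 3 and 0 UMIs in mesangial-like, 1 and 2 in glomerular endothelial-like and 1 and 0 in arterial endothelial-like cells. Smooth muscle or renin-like cells gave 4 and 1 UMIs (9.57 and 1.90 CPM), beside podocyte markers at 20.4 and 12.5% of their podocyte level, and the part of those transcripts in it was not tested.

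**Figure D2:**
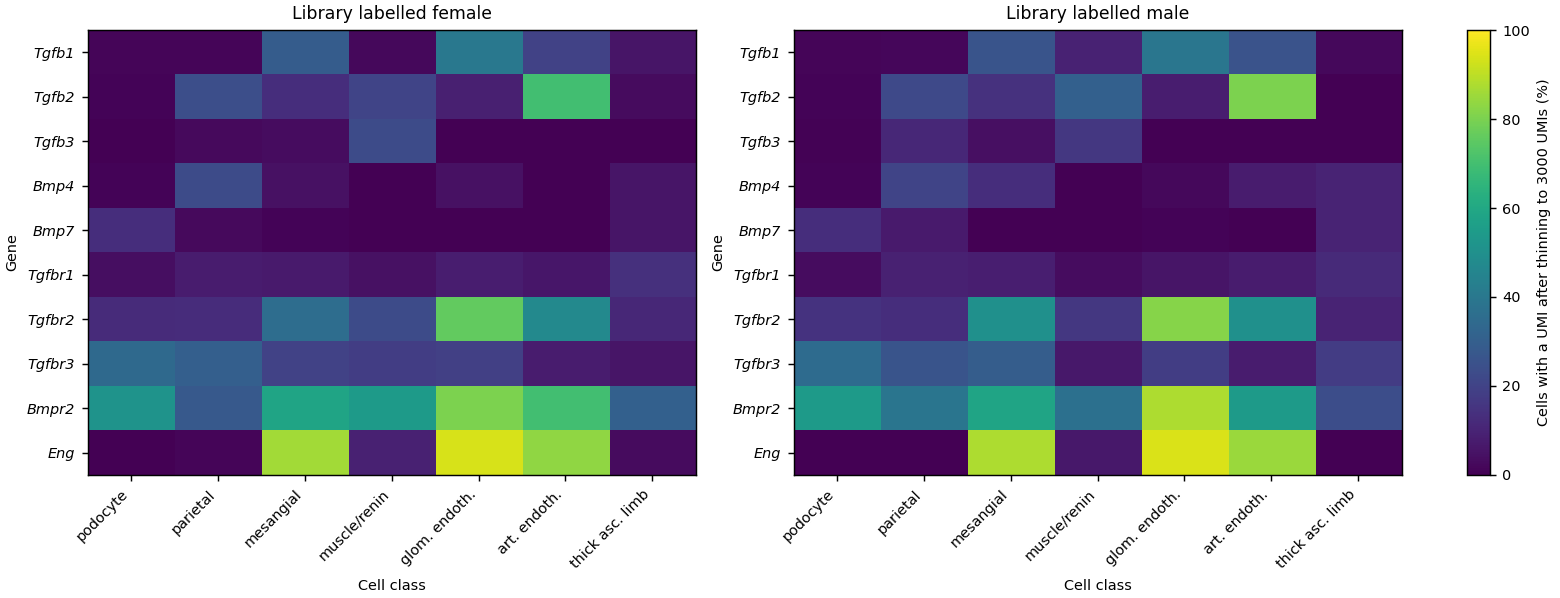
Share of cells with at least 1 UMI of each gene, in percent, by cell class, after each cell was thinned to 3000 UMIs; 1 panel for each library, with the colour scale from 0 to 100%. Eng was found in 93.8 and 94.4% of glomerular endothelial-like cells and in 0.0895 and 0.272% of podocyte-like cells.

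Of the receptors, Tgfbr2 (chr9:116084293-116175360, minus strand), the type II receptor that binds TGF-beta first, followed the endothelium. It stood at 442 CPM (408 to 479) and 538 CPM (486 to 595) in glomerular endothelial-like cells, 2.29- and 2.36-fold above arterial endothelial-like cells at 193 and 228 CPM. Mesangial-like cells (169 and 222 CPM) overlapped the arterial class and lay above smooth muscle or renin-like cells (50.3 and 91.4 CPM) with intervals apart. Parietal epithelial-like cells at 53.3 and 52.0 CPM and podocyte-like cells at 48.4 and 54.1 CPM did not differ beyond their intervals, and thick ascending limb-like cells were lowest at 30.6 and 25.4 CPM, overlapping podocyte-like cells in the library labelled female. After thinning, 75.9 and 82.0% of glomerular endothelial-like cells had a UMI, against 12.2 and 14.7% of podocyte-like cells (97.3 and 95.5% against 41.6 and 41.9% without thinning).

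Tgfbr1 (chr4:47353222-47414931, plus strand), the type I receptor that Tgfbr2 recruits, had no pair of neighbouring classes with intervals apart in both libraries. Parietal epithelial-like cells were highest in the library labelled female (43.8 CPM, 34.6 to 54.7) and thick ascending limb-like cells in the library labelled male (42.7 CPM, 30.0 to 58.8), and the intervals of these 2 classes overlapped in both. Mesangial-like, arterial endothelial-like, glomerular endothelial-like and smooth muscle or renin-like cells lay between 18.7 and 24.5 CPM with overlapping intervals. Podocyte-like cells were lowest, at 11.4 CPM (10.5 to 12.5) and 11.4 CPM (10.3 to 12.7), overlapping smooth muscle or renin-like cells. Glomerular endothelial-like cells, highest for Tgfbr2, held 21.1 and 19.7 CPM of Tgfbr1.

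Tgfbr3 (chr5:107106570-107289629, minus strand), betaglycan, is a co-receptor that presents TGF-beta ligands to Tgfbr2. Podocyte-like cells held 137 CPM (134 to 141) and 147 CPM (143 to 151), just above parietal epithelial-like cells at 112 (96.8 to 128) and 128 (106 to 153) CPM. These 2 classes were apart in the library labelled female and overlapped in the library labelled male. Mesangial-like cells followed at 81.2 and 117 CPM and glomerular endothelial-like cells at 78.6 and 57.8 CPM, while arterial endothelial-like cells were lowest at 23.0 and 27.1 CPM. A UMI was present in 34.1 and 34.9% of podocyte-like and 7.58 and 7.58% of arterial endothelial-like cells after thinning (77.5 and 74.6% against 22.7 and 18.2% without thinning). The arterial level overlapped that of thick ascending limb-like cells (25.1 and 56.5 CPM) in both libraries.

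Eng (chr2:32646595-32682669, plus strand), endoglin, is a co-receptor for BMP and TGF-beta ligands in endothelium and the gene of a hereditary vessel disorder. It was high in 3 classes and near 0 in others. Glomerular endothelial-like cells held 1114 CPM (1059 to 1172) and 1241 CPM (1161 to 1326), mesangial-like cells 769 (731 to 808) and 800 (755 to 846) and arterial endothelial-like cells 755 (692 to 822) and 711 (644 to 782). The first of these lay above the other 2 with intervals apart, and mesangial-like and arterial endothelial-like cells overlapped. Smooth muscle or renin-like cells held less, 57.4 and 38.1 CPM, 13.1- and 18.7-fold below arterial endothelial-like cells. Podocyte-like cells gave 23 and 12 UMIs in all, 0.535 and 0.362 CPM, and parietal epithelial-like cells 5 and 0 UMIs.

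Endothelial markers were lower, but not absent, in the mesangial-like cells that held Eng. All 10 glomerular endothelial markers were above 0 there and summed to 1320 and 1474 CPM, against 17074 and 15180 CPM in glomerular endothelial-like cells. Of these sums Ehd3 gave 751 and 713 CPM, against 3757 and 2749 CPM in glomerular endothelial-like cells. Pecam1 was at 2.51 and 15.2 CPM and Kdr at 3.51 and 48.4 CPM, against 1187 and 1356 CPM and 2505 and 2203 CPM. Eng was seen in 86.1 and 87.6% of thinned mesangial-like cells (95.7 and 95.3% without thinning). In thick ascending limb-like cells of the library labelled female, 28 UMIs of Eng lay in 2 of 36 cells, where the 10 glomerular endothelial markers summed to 642 CPM over the class. In the other library, with no UMI of Eng in 51 cells (up to 3.46 CPM), they summed to 264 CPM and 6 were at 0. The part of endothelial transcripts in these Eng counts was not tested. Fpgs, a neighbour that overlaps Eng in antisense, reached 34.8 and 36.9 CPM there.

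Bmpr2 (chr1:59763400-59879014, plus strand), the BMP type II receptor and a gene of inherited pulmonary arterial hypertension, was present in every class. It stood at 573 CPM (533 to 614) and 605 CPM (549 to 665) in glomerular endothelial-like cells, and at 334 and 349 CPM in arterial endothelial-like and 343 and 317 CPM in mesangial-like cells, which overlapped. Podocyte-like cells held 249 (245 to 254) and 266 (260 to 272) CPM, smooth muscle or renin-like cells 218 and 181 CPM, parietal epithelial-like cells 136 and 143 CPM and thick ascending limb-like cells 127 and 106 CPM. The step from arterial endothelial-like to glomerular endothelial-like cells was 1.71- and 1.73-fold, with intervals apart. Even thinned, 51.4 and 54.6% of podocyte-like cells had a UMI of Bmpr2 (91.0 and 90.6% without thinning).

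Across the 7 classes the log2(CPM + 10) values of the 2 libraries correlated with Pearson's r from 0.827 for Tgfbr3 to 0.986 for Tgfb2, given as a description over classes that share each library's depth.

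Podocyte-like cells fell into 7 clusters. Among them Bmp7 and the receptors other than Eng differed by 1.15-fold for Tgfbr3, 1.22-fold for Bmp7 and for Bmpr2, 1.43-fold for Tgfbr2 and 1.44-fold for Tgfbr1 between the lowest and highest mean of both libraries. The low ligands varied more, from few UMIs, by 1.96-fold for Tgfb1, 5.48-fold for Tgfb3, 6.16-fold for Tgfb2 and 13.2-fold for Bmp4, as did Eng, by 3.79-fold. Tgfb2 stood at 9.34 CPM (7.43 to 11.6) and 11.8 CPM (7.71 to 17.3) in cluster 5, whose leading genes held the immediate early genes Atf3, Nr4a1 and Ier2, against 2.11 CPM (1.23 to 3.38) and 1.32 CPM (0.634 to 2.43) in cluster 0. Cluster 2, which was also led by immediate early genes, held Tgfb2 at 2.85 and 3.13 CPM. Bmp4 was at 6.99 and 3.39 CPM in cluster 4 and at 0 and 0.787 CPM in cluster 6. Cluster 5 held 641 cells under the female label and 185 under the male label, and the part of its immediate early genes in its Tgfb2 level was not tested.

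Of all 25 clusters, an unnamed one held the highest Tgfbr3 in both libraries. The unnamed cluster 9.1, led by Igfbp6, Cst12 and Col6a1 and holding 9 of the podocyte markers at over 20% of their highest cluster level, had 219 CPM (195 to 246) and 229 CPM (195 to 268) of Tgfbr3 in 83 and 54 cells. Bmp4 was at 93.6 (77.7 to 112) and 55.5 (39.5 to 75.9) CPM, levels that overlapped those of parietal epithelial-like cells in both libraries. Tgfb2, at 10.7 and 22.8 CPM, was below the parietal epithelial level, and Tgfbr2, at 17.6 (11.2 to 26.5) and 25.6 (15.2 to 40.5) CPM, below that of podocyte-like cells, with intervals apart. Its neighbour, the unnamed cluster 9.3, led by Pla2g7 and Cst12 in 63 and 65 cells, combined 55.6 and 30.8 CPM of Bmp4 with 56.7 and 48.8 CPM of Bmp7. Podocyte-like cells held 2.84 and 2.42 CPM of Bmp4, and parietal epithelial-like cells 16.8 and 16.6 CPM of Bmp7. The part of podocyte transcripts in these clusters was not tested.

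**Figure D3:**
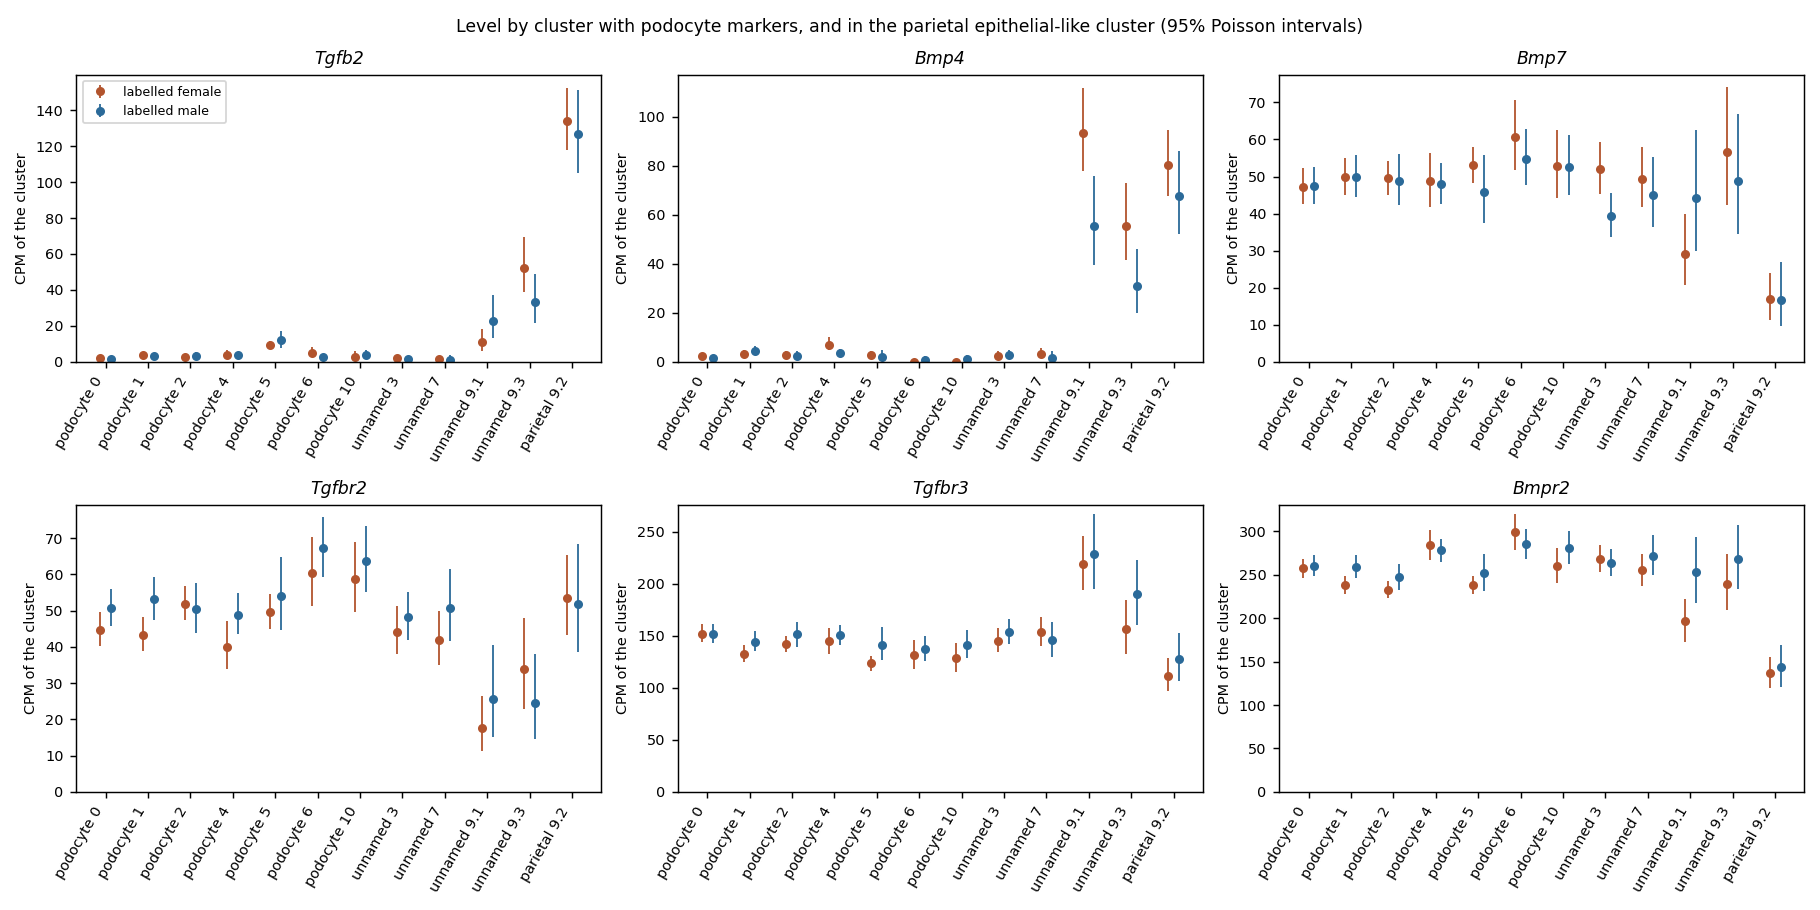
Level of 6 genes, as CPM of the cluster, in the 7 podocyte-like clusters, 4 unnamed clusters with podocyte markers and the parietal epithelial-like cluster, for the libraries labelled female and male; bars are 95% Poisson intervals and axes start at 0. Tgfbr3 is highest in unnamed cluster 9.1 at 219 and 229 CPM, where Bmp4 is at 93.6 and 55.5 CPM.

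Between the libraries, none of the 10 genes at 20 CPM or more passed a 1.5-fold difference in the 3 classes with most cells, podocyte-like, mesangial-like and glomerular endothelial-like. In podocyte-like cells 0 of the 4 genes at 20 CPM or more differed by 1.5-fold or more in either direction, against 1.67% of all genes, and the ratios, female label over male label, were 0.895 (0.839 to 0.953) for Tgfbr2, 0.934 (0.899 to 0.970) for Tgfbr3, 0.938 (0.912 to 0.965) for Bmpr2 and 1.03 (0.961 to 1.09) for Bmp7. In mesangial-like cells 0 of 8 passed (8.73% of all genes), although Tgfbr3 was at a ratio of 0.692 (0.556 to 0.862) and Tgfbr2 at 0.761 (0.652 to 0.888). In glomerular endothelial-like cells 0 of 7 passed (18.3% of all genes), with Tgfbr2 at 0.822 (0.722 to 0.936) and Eng at 0.898 (0.826 to 0.976). Without the 5 cells with Pdgfrb, Tgfbr2 was at 469 and 538 CPM, Eng at 1121 and 1241 CPM and Tgfbr3 at 68.2 and 57.8 CPM. Intervals of the ratios were not computed without them. After thinning to 3000 UMIs a cell, 3 passed in mesangial-like and 2 in glomerular endothelial-like cells. The share of all genes that passed after thinning was not computed, so these counts have no background. With all cells of each class kept, Tgfbr2 was lower in the library labelled female in 5 of the 7 classes, and its interval excluded 1 in 4 of them.

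The smaller classes held the larger ratios. In parietal epithelial-like cells 1 of 7 genes passed (10.8% of all genes), Tgfb3 at a ratio of 0.393 (0.193 to 0.783) from 16 and 22 UMIs. In arterial endothelial-like cells 1 of 8 passed (21.1%), Bmp4 at 0.585 (0.246 to 1.34), and Tgfb2 was at 0.736 (0.635 to 0.854), a 1.36-fold difference that its interval set apart from 1. In smooth muscle or renin-like cells 3 of 8 passed (28.1%), Tgfbr3 and Eng, each at 1.51 (0.798 to 2.88), and Tgfbr2 at 0.550 (0.313 to 0.936), the only interval of the 3 that excluded 1. In that class podocyte markers stood at 20.4 and 12.5% of their podocyte level, and glomerular endothelial markers summed to 1197 and 813 CPM. The part of such transcripts in these 3 ratios was not tested. In thick ascending limb-like cells 2 of 7 passed (23.5%), Tgfbr3 at 0.444 (0.243 to 0.775) and Eng, whose UMIs lay in 2 cells. The erythroid markers of the thick ascending limb-like class were at 16134 and 10.4 CPM, and their part in its ratios was not tested. The share of the 10 genes that passed was below that of all genes in 4 classes and above it in 3 (parietal epithelial-like, smooth muscle or renin-like and thick ascending limb-like). Their median log2 ratio lay between -0.20 and 0.24, against -0.03 and 0.03 for all genes tested.

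**Figure D4:**
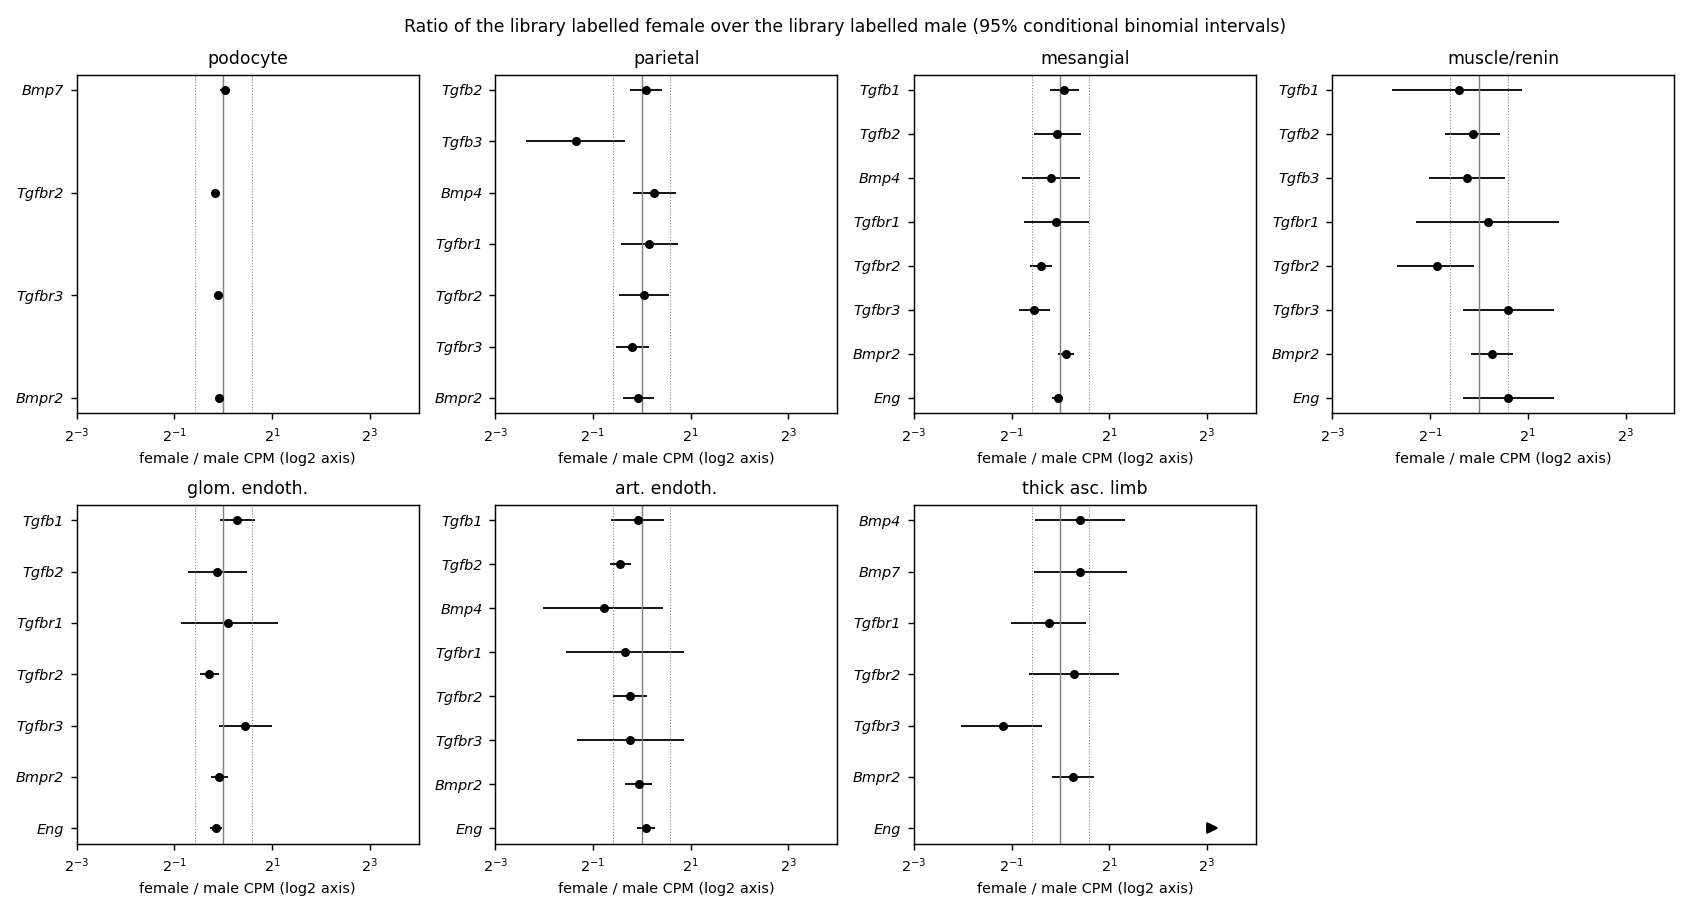
Ratio of CPM between the libraries, female label over male label (log2 axis), for each gene at 20 CPM or more in either library, by cell class, with 95% conditional binomial intervals; dotted lines mark 1.5-fold, and the arrow marks the lower bound where the male-labelled library had 0 UMIs. All 4 podocyte points lie close to 1, and the widest intervals are in the small classes.

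The other genes of the pathways, 110 in 7 lists that share some members, were described in the same way. Of these, 68 reached 20 CPM in their highest class in both libraries, as did 9188 of all 31058 entries. Among the 68, 50 had the same highest class in both, against 66.9% of all genes at this level. In both libraries 16 of the 68 stood 2-fold above the next class, against 15.7%. Of 26 other ligands 7 were detected, with 20 CPM in their highest class in both libraries. Gdf10, a BMP-like ligand, was highest in mesangial-like cells at 438 and 447 CPM, and Inhba, which encodes the activin A subunit, reached 132 and 154 CPM in smooth muscle or renin-like cells, its highest class. Parietal epithelial-like cells were highest for 3 (10.8% of all genes), among them Bmp3 (124 and 111 CPM) and Gdf15, a stress-induced member of the family (96.0 and 89.4 CPM).

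Of 14 other receptors and co-receptors 8 were detected. Acvrl1, the endothelial type I receptor that works with Eng, was highest in arterial endothelial-like cells (271 and 250 CPM), followed by glomerular endothelial-like cells (193 and 175 CPM). Bmpr1a, a BMP type I receptor, was highest in podocyte-like cells (186 and 202 CPM), followed by smooth muscle or renin-like cells (136 and 147 CPM). Bambi, a decoy receptor without a kinase, was likewise highest in podocyte-like cells (93.1 and 110 CPM), with glomerular endothelial-like cells close behind (88.8 and 97.2 CPM). Podocyte-like cells were also the highest class for the ligand Bmp7, and for 12.8% of all genes.

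Among Smad proteins and their regulators 13 of 14 were detected. Of the 13, 5 had the same highest class in both libraries (66.9% of all genes), 4 of them glomerular endothelial-like (9.33%). These were the inhibitory Smad6 (126 and 103 CPM), the ubiquitin ligase Smurf2 (237 and 200.1 CPM), the repressor Skil (148 and 130 CPM) and the BMP-responsive Smad5 (72.7 and 73.3 CPM). Of the latency and activation genes 13 of 14 were detected. All 13 had the same highest class in both libraries (66.9% of all genes), and 6 stood at least 2-fold above the next (15.7%). Ltbp1, a latent TGF-beta binding protein, was highest in smooth muscle or renin-like cells (314 and 328 CPM), where Tgfb3 and 4.83% of all genes were also highest. Ltbp4 (686 and 504 CPM) and Lrrc32, which tethers latent TGF-beta to the cell surface (262 and 223 CPM), were highest in arterial endothelial-like cells, the class of Tgfb2 and of 6.85% of all genes. Itgb6, an integrin subunit that activates latent TGF-beta, was highest in thick ascending limb-like cells (153 and 135 CPM), then in parietal epithelial-like cells (68.5 and 63.4 CPM).

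Of 20 extracellular antagonists and modulators 7 were detected. Sostdc1, a BMP and Wnt antagonist, was highest in thick ascending limb-like cells at 1368 and 1174 CPM. Crim1, which binds BMP ligands in secreting cells, was highest in parietal epithelial-like cells (1069 and 1489 CPM), as was Twsg1, an extracellular BMP modulator (133 and 141 CPM). Htra1, a secreted protease, was highest in podocyte-like cells (942 and 1052 CPM). Parietal epithelial-like cells were also the highest class for Bmp4, and for 10.8% of all genes.

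The TGF-beta response list had 15 of 17 genes detected and the BMP response list 10 of 12. Acta2 (5352 and 5637 CPM) and Tagln (4483 and 4071 CPM), contractile genes of smooth muscle, were highest in smooth muscle or renin-like cells. Ctgf was highest in mesangial-like cells (3921 and 3362 CPM) and Fn1, fibronectin, in arterial endothelial-like cells (160 and 188 CPM). The BMP targets Id1 (791 and 690.4 CPM) and Msx1 (67.7 and 72.8 CPM) were highest in arterial endothelial-like cells and Id4 in parietal epithelial-like cells (122 and 134 CPM). In podocyte-like cells 2 of 27 pathway genes tested were 1.5-fold or more higher in the library labelled female (1.27% of all genes) and 0 higher in the other (0.406%), and both belong to the TGF-beta response list. They were Pmepa1, a Smad-binding feedback gene, at 447 and 269 CPM with a ratio of 1.66 (1.62 to 1.70), and Tagln at 64.5 and 34.6 CPM with a ratio of 1.87 and a lower bound of 1.74. The class was made up differently in the libraries, with 679 and 349 cells of cluster 2 and 641 and 185 cells of cluster 5, both led by immediate early genes, and the part of this in the ratios was not tested. In mesangial-like cells 1 of 46 was higher in the library labelled female (3.51% of all genes) and 2 in the other (5.22%), and in parietal epithelial-like cells 3 (6.13%) and 2 (4.64%) of 51. In smooth muscle or renin-like cells these were 9 (15.3%) and 14 (12.8%) of 52, in arterial endothelial-like cells 4 (9.31%) and 6 (11.8%) of 43 and in thick ascending limb-like cells 8 (10.5%) and 3 (13%) of 40.

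In glomerular endothelial-like cells 11 of 46 pathway genes were 1.5-fold or more higher in the library labelled female (10.9% of all genes) and 2 lower (7.47%). Ctgf was at 228 and 5.64 CPM and Gdf10 at 70.6 and 2.82 CPM, both genes with their highest level in mesangial-like cells. Without the 5 cells with Pdgfrb UMIs the counts became 1 higher and 3 lower of 39, with Ctgf at 14.2 CPM and Gdf10 at 0.947 CPM in the library labelled female. The shares of all genes without these cells were not computed, so the fall has no background. Hey1, a Notch and BMP target, was lower in that library both with these cells (6.55 against 22.5 CPM; ratio 0.290, 0.113 to 0.698) and without them (7.58 CPM). Bmp6, a BMP ligand of endothelial cells, was at 66.2 and 104 CPM with a ratio of 0.635 (0.462 to 0.875), and at 73.9 CPM, a ratio of 0.709 that no longer passed 1.5-fold, without those cells.

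**Figure D5:**
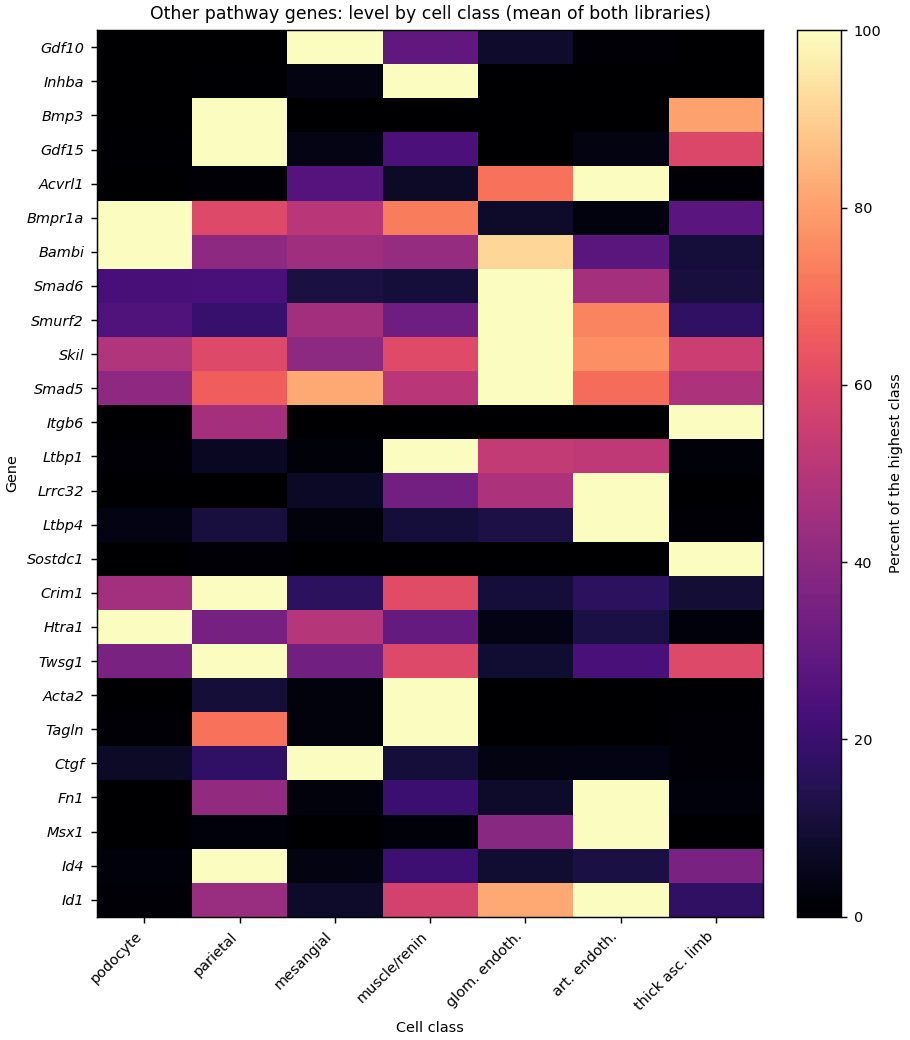
Mean level of 26 other pathway genes over both libraries in each of 7 cell classes, as percent of the gene's highest class (colour scale from 0 to 100%). Some genes have 1 bright class, as Sostdc1 in thick ascending limb-like cells (1368 and 1174 CPM) and Inhba in smooth muscle or renin-like cells (132 and 154 CPM). Others have a second class near the highest, as Bambi in podocyte-like (93.1 and 110 CPM) and glomerular endothelial-like cells (88.8 and 97.2 CPM). The genes were chosen by a high ratio of the highest class to the median of the others, which favours a bright class.

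The genes most like each of the 10 were found by Pearson's r of log2(CPM + 10), mean of both libraries, over the 7 classes among 5961 genes. With 7 points that share 2 libraries, these are descriptions of pattern only. Slfn5 was nearest to both Eng (r = 0.996) and Tgfb1 (0.992), followed for Eng by Cd34 (0.993), a surface protein of endothelium. Nearest to Tgfb3 was Mustn1 (0.996), one of the markers of smooth muscle or renin-like cells. For Tgfb2 it was Kansl1 (0.977), for Tgfbr2 Tbc1d20 (0.990), for Bmpr2 Rbm28 (0.991), for Tgfbr3 Cops7a (0.994), for Bmp7 Tm2d1 (0.992), for Bmp4 Mark3 (0.967) and for Tgfbr1 Sestd1 (0.978).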

How the data were processed

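The 2 10x 3' libraries, 1 per mouse, were sequenced on a NextSeq500 from suspensions of 95% viability, per the labels' protocols. Cell Ranger 6.1.2, STAR 2.7.5a and mm10 are named in the submitters' processing notes, without their roles. The deposited values are raw counts of UMIs per gene and barcode, per the file headers and the values. No source used here gives the strand of counting or the rule that called cells.

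Barcodes with over 20% mitochondrial UMIs (283 and 504) or under 500 genes (112 and 145) were left out, which left 9351 cells. Scrublet (scanpy 1.11.5) called 2 and 1 doublets and so did not work here; no doublets were removed. Counts were scaled to 10000 a cell, log transformed and reduced to 30 components of 2000 variable genes, without mitochondrial, reporter, sex-linked, member and pathway genes. Leiden clustering (leidenalg 0.10.2, resolution 1.0, 20 neighbours) gave 19 clusters. Those not podocyte by score and with 60 or more cells were clustered again (20 components, resolution 0.3), which gave 25. Clusters were named from 16 marker lists. A marker counted in over 20% of cells, at 50 CPM, at more than 2 times the lower quartile over clusters, and 3 were needed. The 6 pathway genes among the markers were left out of this count and of the mean relative level. They were kept where markers among the top 10 genes were counted. There Sostdc1 was in the thick ascending limb-like cluster and Acta2 in the smooth muscle or renin-like cluster. The highest mean relative level gave the name, except that erythroid needed haemoglobin at over 20% of UMIs; the thick ascending limb-like cluster scored highest for erythroid (0.96) with haemoglobin at 0.731%, and took the next name. A cluster stayed unnamed if another type had more markers among its top 10 genes. With no marker of its own type among them, 3 or more cell cycle genes there, or low UMIs a cell, also left it unnamed. So did podocyte markers (3 or more at over 20% of the top cluster) in a cluster of another kind, and a podocyte name in the second round. In all 8 clusters stayed unnamed. Cluster 3 (977 cells) and cluster 7 (495 cells), each with 10 podocyte markers past that share, had more haemoglobin genes than podocyte markers among their top 10 genes. The rule for names was chosen after looking at the clusters.

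For the 7 classes that had 20 or more cells in both libraries, counts were added up within each library and given as CPM. Intervals at 95% are exact Poisson (levels), conditional binomial (ratios) and Clopper-Pearson (shares); a count of 0 allows up to 3. They cover counting error only and assume UMIs spread evenly over cells. With 1 library per group no test was possible. For shares each cell was thinned to 3000 UMIs, below the depth of every kept cell. The 10 genes and the lists were chosen with earlier results of these data known. All 10 genes are named. From each list up to 4 genes are named by the highest ratio of the highest class to the median of the others, at 50 CPM or more and with the same highest class in both libraries, and 3 genes by likeness to each gene (pathway genes past 1.5-fold between libraries that are named besides, and the motifs, were chosen after their values were seen). Promoters come from RefSeq tables, and coordinates of genes from GENCODE M21. The class sums and intervals were tested on simulated counts drawn from Poisson distributions, the model that the intervals assume. Such counts cannot show the effect of UMIs spread unevenly over cells or of transcripts from other cells.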

Additional observations from a re-analysis of the deposited data

How the results depend on the processing

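No paired analysis was possible because each group had 1 library. Of 105 values under 15 alternatives (13 chosen at the start and 2, without a second round of clustering and without glomerular endothelial-like cells with Pdgfrb, chosen after seeing the data), 90 lay within 1.5 times the value reported. For the 68 detected pathway genes all 15 were chosen after seeing the data; the count became 50 with a minimum of 50 CPM, 90 with a minimum of 1 CPM and 66 to 69 otherwise. The highest class of 8 of the 10 genes was the same under every alternative. The others were Tgfbr1, which moved to proximal tubule-like cells with a 10% mitochondrial limit and to thick ascending limb-like cells after thinning or without the second round, and Tgfbr3, which moved to parietal epithelial-like cells without the second round. The level of a gene in its highest class moved at most 1.48-fold, for Tgfbr1 (28.1 to 43.7 CPM). A minimum of 50 or 1 CPM left the class sums as they were, so neither the highest class nor its level could change under these alternatives.

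Counts of genes past 1.5-fold between the libraries were small and moved by at most 3 genes. In parietal epithelial-like cells the count of 1 became 2 with a 10% mitochondrial limit, with thinning, with a minimum of 1 CPM and with the mean of per-cell CPM, and 0 with a 50% mitochondrial limit, at resolution 2.0, with pathway genes kept in the clustering and with a minimum of 50 CPM. In glomerular endothelial-like cells 0 became 1 at resolution 0.5, 2 with thinning and 3 with a minimum of 1 CPM. In mesangial-like cells 0 became 3 with thinning and 1 with a minimum of 1 CPM or the mean of per-cell CPM. With thinning the number of genes 2-fold above the next class fell from 4 to 1. The cause was not tested, and shares of all genes were not computed under the alternatives. The summed depth differed between the classes, from 417775 and 525132 UMIs in smooth muscle or renin-like cells to 42978853 and 33124611 in podocyte-like cells.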

Other observations

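Some cells outside the 7 classes held these genes at levels of their own. The unnamed cycling cluster, led by Cenpf, Top2a and Mki67, had Eng at 837 and 816 CPM in 23 and 11 cells, near the level of mesangial-like cells (769 and 800 CPM). T or NK-like cells, 11 and 33 in number, had Tgfb1 at 67.3 (33.6 to 120) and 58.9 (34.3 to 94.4) CPM and Tgfbr2 at 110 and 107 CPM. Their podocyte markers stood at 40.6 and 3.09% of the podocyte level, beside Tgfbr3 at 85.7 and 13.9 CPM and Bmpr2 at 122 and 24.3 CPM; the part of podocyte transcripts in these 2 differences was not tested. Macrophage or monocyte-like cells had Tgfbr1 at 55.1 (17.9 to 129) and 76.4 (43.7 to 124) CPM, from 5 and 16 UMIs.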
